A study of Mus musculus with 6 samples.

Results

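The genes described here are the killer lectin receptors of the mouse, the surface receptors whose gene symbols start with Klr, together with 16 further genes of natural killer (NK) cells. They were chosen by name alone. The Klr symbols gave 23 genes on the array and all 16 further genes were found, so there were 39 members among 19938 genes. Each member had 1 probe set that was linked to that gene and to no other. The 6 arrays came from 3 populations of cultured or transplanted mouse cells, with 2 arrays each. For HSC, bone marrow progenitors transduced with Nup98-HoxB4, a fusion protein that lets them keep dividing, were expanded in vitro with IL6 and SCF. For ProT, transduced cells were grown with IL7 and with DLL4, a ligand that switches on Notch1. The DP samples were double positive thymocytes that arose after ProT cells had been injected into a Rag2-/- mouse. All 3 populations thus carried the fusion protein, and no population without it was analysed here. A Rag2-/- host makes no mature T or B cells of its own but still has NK cells and myeloid cells. The sources used here do not give strain, age, the number of animals or how DP cells were isolated. Since the labels do not tie the replicates to separate cultures or animals, p-values measure the spread between these arrays, which may be technical.

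NK cells kill infected or transformed cells without rearranged antigen receptors, and they read their targets through paired activating and inhibitory receptors. In the mouse most of the lectin-like receptors lie side by side on chromosome 6, in what is called the NK gene complex. The Klra genes encode the Ly49 receptors for MHC class I, the Klrb1 genes the NKR-P1 receptors for Clec2 proteins, and Klrd1 encodes CD94, which pairs with the NKG2 chains of the Klrc genes. Inhibitory receptors carry a phosphatase-binding motif in their own tail, while activating receptors signal through small adaptors, chiefly DAP12 (Tyrobp) and DAP10 (Hcst). T cells and NK cells share a common lymphoid origin, and early thymic progenitors that do not complete T cell commitment can still form NK cells.

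Values are log2 signals, so a difference of 1 is a doubling. Olfactory receptor genes, which blood cells do not use, gave a measure of what an unused gene reads: the 95th percentile of 1027 such genes was 6.03 in HSC, 6.02 in ProT and 6.05 in DP. It is called the olfactory level below. A member whose mean lay under it was not shown to be above background, and a fold against such a mean is given as at least the fold over the olfactory level. A mean has its SD (n = 2) beside it, and a log2 change has the standard error of the limma fit. Calls required an adjusted p (Benjamini-Hochberg, over the 19938 genes) below 0.05. Pearson's r between replicate arrays was 0.991 to 0.997 across probe sets. No test for an outlying array was made. All 6 double positive thymocyte markers, among them Cd4, Cd8a and Rag1, were called higher in DP than in ProT and HSC. The 4 progenitor markers, Kit, Cd34, Mecom and Meis1, were above the olfactory level in all 3 populations. All 4 were called lower in DP than in HSC. Between HSC and ProT they were mixed: Mecom was called lower in ProT (-2.74 ± 0.30), Kit higher (0.72 ± 0.10), and Cd34 and Meis1 were not called. Their summed linear signals were 10403 to 11635 in HSC, 11948 to 12266 in ProT and 1231 to 1405 in DP. Probe sets differ in how strongly they bind. Where levels of different genes are set side by side or summed, they do not give the relative amounts of transcript.

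The calls placed 16 NK genes higher in ProT than in both HSC and DP. Klrg1 and Klri2 among these had every mean under the olfactory level. Calls of Tyrobp, Nfil3, Ifng, Klrg1 and Il12rb1 were lost in some alternative fits. No mean above the olfactory level was found for 16 of the 23 killer lectin receptor genes. Of the 39 members, 18 were called higher and 3 lower in ProT than in HSC, against 7.85% and 6.90% of all genes (14.7% in either direction). From ProT to DP 4 were called higher and 21 lower, against 14.5% and 18.1% of all genes (32.6% in either direction). Between DP and HSC 11 were higher and 9 lower, against 16.0% and 18.8% (34.9% in either direction). The median log2 change of the members was 0.42, -0.54 and 0.15 in the same order, beside -0.01, 0.02 and 0.02 for all genes. The members called in both steps in opposite directions were 16 with their highest value in ProT, beside 4.17% of all genes, and 0 by limma with their lowest value there (0 at unadjusted p below 0.05), beside 1.35%. Both steps use the ProT arrays, so their changes are not independent. With arrays centred on their medians, the median change over all genes became -0.09 from HSC to ProT and 0.13 from ProT to DP, and the share of higher genes among all calls went from 53.2% to 42.0% and from 44.6% to 60.2%. Of the 16 members highest in ProT, 5 were called higher in DP than in HSC, 2 lower, and 9 were not called. The same split was not made for all genes highest in ProT. In these bulk samples, fewer cells of a type and less RNA per cell cannot be told apart.

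**Figure D1:**
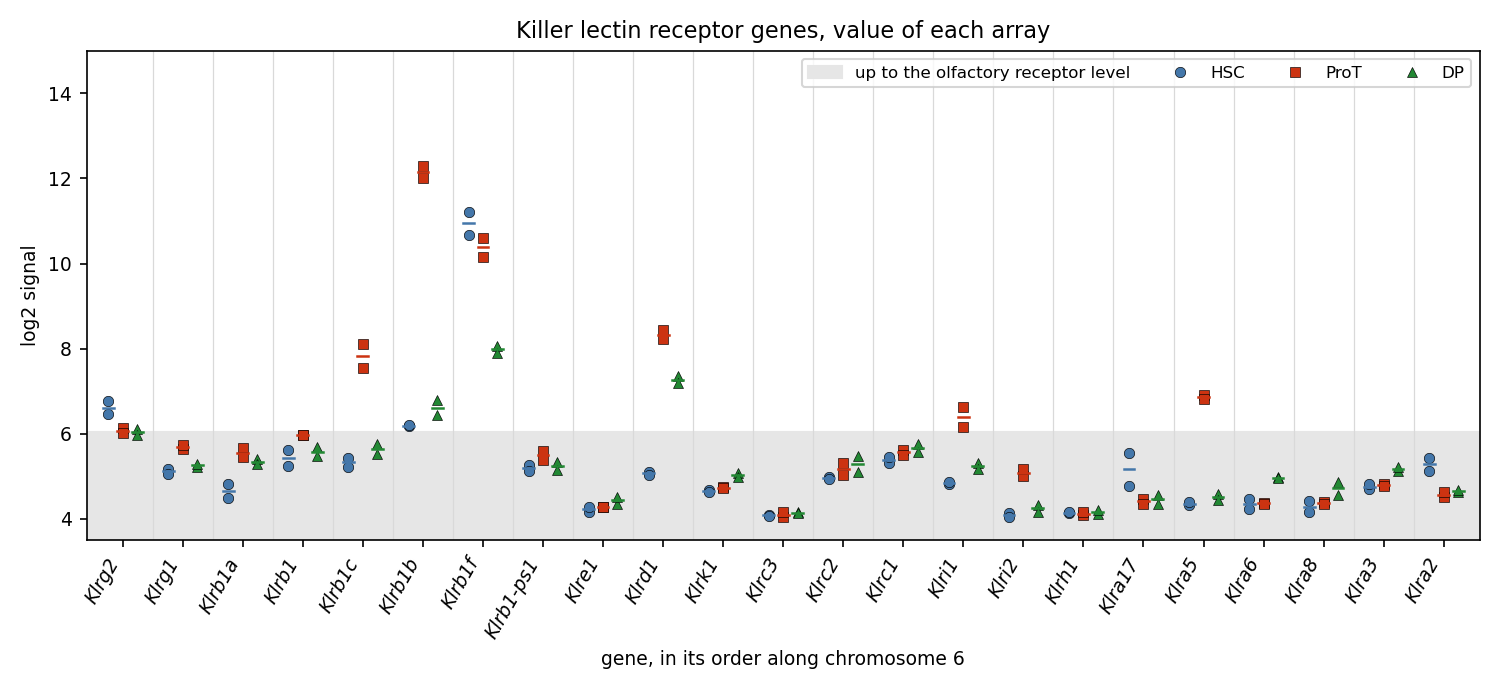
Log2 signal (vertical axis) of the 23 killer lectin receptor genes, ordered along chromosome 6 as in the RefSeq table of GRCm38.p6, with 1 point per array, a short bar at the mean of each population and a grey band up to the olfactory level. Klrd1, Klrb1c, Klra5 and Klri1 lie inside the band in HSC and above it in ProT, Klrb1b lies just above it in HSC and DP and far above it in ProT, Klrb1f is high in HSC and ProT, and 16 genes have all 3 means inside the band.

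Few of the lectin receptors were above the level of unused genes. In ProT 7 of the 23 had a mean above the olfactory level, and in HSC and in DP 3 had one. The 16 genes with no mean above that level in any population are Klra17, Klra2, Klra3, Klra6, Klra8, Klrb1, Klrb1-ps1, Klrb1a, Klrc1, Klrc2, Klrc3, Klre1, Klrg1, Klrh1, Klri2 and Klrk1, whose array values ran from 4.04 to 5.97. Among all genes 29.8% had no mean above it, among the lectin receptors 69.6%. A gene at this level may still be called, because its arrays agree closely, and 7 of the 16 were called in at least 1 comparison with changes of at most 0.99 on the log2 scale. In at least 1 comparison 43.5% of all genes were called, and 6.46% of the 5941 genes with no mean above the olfactory level.

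The Klrb1 genes, which encode NKR-P1 receptors, included the largest change of any member. Klrb1b, an inhibitory NKR-P1 receptor, read 6.18 and 6.20 in HSC, 12.01 and 12.30 in ProT, and 6.79 and 6.44 in DP. Both ProT arrays were far above the other 4, which lay close to the olfactory level. The gene rose 62.7-fold from HSC to ProT (log2 change 5.97 ± 0.15, adjusted p = 1.13e-05, limma) and fell 46.5-fold from ProT to DP. The difference between DP and HSC was not called (0.43 ± 0.15, adjusted p = 0.0762). Klrb1c, the activating receptor long used as an NK cell surface marker, read 5.42 and 5.23 in HSC, 8.10 and 7.54 in ProT, and 5.77 and 5.52 in DP. The ProT arrays lay above all others, and the rise was at least 3.48-fold (2.50 ± 0.20, adjusted p = 0.000805, limma) and the fall at least 3.41-fold.

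Klrb1f, another NKR-P1 receptor gene of the same cluster, had a different course. It was already high in HSC, at 10.68 and 11.22, stayed at 10.16 and 10.60 in ProT and went down to 8.06 and 7.90 in DP. The step from HSC to ProT was not called (-0.57 ± 0.22, adjusted p = 0.17) except without HSC replicate 1 (-0.84, adjusted p = 0.0409, limma), and the fall to DP was 5.29-fold (-2.40 ± 0.22, adjusted p = 0.000653, limma). Klrb1a was called higher in ProT (0.90 ± 0.13), but all of its arrays, from 4.50 to 5.66, lay under the olfactory level. Klrb1 and the pseudogene Klrb1-ps1 were not called in any comparison. The Klrb1 genes are close copies of one another, so a probe set for 1 gene may also pick up transcript of a sister gene, which was not tested.

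Start sites of Klrb1b, Klrb1c and Klrb1a are shown here because these genes of the same cluster differed in their change from HSC to ProT. Each sequence, from RefSeq (GRCm38.p6), runs 5′ to 3′ on the strand of the gene, from 250 bases before to 50 bases after the annotated start. Capitals mark matches, on either strand, to 8 short motifs. Each motif is spelled out where its matches are described.
Klrb1b, chr6:128826266-128826565, minus strand: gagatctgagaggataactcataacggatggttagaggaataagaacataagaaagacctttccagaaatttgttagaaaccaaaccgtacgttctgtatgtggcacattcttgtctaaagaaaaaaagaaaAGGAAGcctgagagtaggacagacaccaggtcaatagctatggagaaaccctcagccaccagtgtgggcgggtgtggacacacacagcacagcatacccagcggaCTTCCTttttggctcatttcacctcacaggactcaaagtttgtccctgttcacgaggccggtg
Klrb1c, chr6:128788592-128788891, minus strand: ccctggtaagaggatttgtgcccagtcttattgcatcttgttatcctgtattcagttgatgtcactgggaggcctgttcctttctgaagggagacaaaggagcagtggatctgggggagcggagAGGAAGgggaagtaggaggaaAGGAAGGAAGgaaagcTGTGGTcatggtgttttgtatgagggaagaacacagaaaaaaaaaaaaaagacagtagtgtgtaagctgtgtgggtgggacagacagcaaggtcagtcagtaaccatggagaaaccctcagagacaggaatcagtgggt
Klrb1a, chr6:128622885-128623184, minus strand: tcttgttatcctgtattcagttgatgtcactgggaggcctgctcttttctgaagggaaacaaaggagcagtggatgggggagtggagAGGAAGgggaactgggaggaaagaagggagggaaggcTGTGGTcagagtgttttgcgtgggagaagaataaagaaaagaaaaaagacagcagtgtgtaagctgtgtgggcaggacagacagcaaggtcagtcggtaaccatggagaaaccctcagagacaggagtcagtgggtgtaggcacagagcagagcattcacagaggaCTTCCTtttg

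The Klrb1a and Klrb1c sequences were 69.4% identical over 340 aligned columns, and the Klrb1b and Klrb1c sequences 43.8% over 352. Klrb1b held 2 matches to AGGAAG, the letters searched for ETS factors, which act in most lymphocytes. Klrb1c held 3 ETS matches, of which 2 overlap, and 1 match to TGTGGT, the letters searched for RUNX factors, and Klrb1a held 2 ETS matches and 1 RUNX match. Thus Klrb1a, with its signal under the olfactory level, and Klrb1c, with its rise in ProT, shared these motif kinds. Among 32851 promoters of the same length, 35.4% held an ETS match and 16.8% a RUNX match.

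Of the Klra genes, which encode the Ly49 receptors, Klra5 alone had a mean above the olfactory level, and only in ProT. Klra5 encodes Ly49E, an inhibitory receptor known from fetal NK cells and fetal thymocytes. It read 4.33 and 4.39 in HSC, 6.91 and 6.82 in ProT, and 4.59 and 4.44 in DP. Its ProT arrays were well separated from the others, which sat deep within the range of unused genes. The rise was at least 1.79-fold (2.51 ± 0.09, adjusted p = 3.27e-05, limma) and the fall at least 1.76-fold (-2.35 ± 0.09). This course rests on 1 probe set. Probe sets that list Klra5 together with other Klra genes read 4.34 to 4.56 in ProT and did not follow it. Klra8, which encodes the activating receptor Ly49H that recognises a cytomegalovirus protein, read 4.16 to 4.41 in HSC, 4.36 to 4.40 in ProT and 4.57 to 4.87 in DP, and it was not called in any comparison. Klra6 and Klra3 were called higher in DP than in ProT (0.61 ± 0.10 and 0.38 ± 0.08) and Klra2 lower in ProT than in HSC (-0.72 ± 0.12), with every array of these 3 genes between 4.22 and 5.44. The Klra3 call was lost without ProT replicate 1 (adjusted p = 0.0575), ProT replicate 2 (0.0816), DP replicate 1 (0.0668) or DP replicate 2 (0.124), in limma. The Klra2 call was lost without ProT replicate 1 (adjusted p = 0.0673, limma), without either DP array (0.0528) and in the fit of HSC and ProT alone (0.0528). Klra17 was not called in ProT against HSC at -0.74 ± 0.25, and its HSC arrays lay apart at 4.77 and 5.55. Without HSC replicate 1 it was called (-1.13, adjusted p = 0.00319, limma).

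The promoters of Klra5 and Klra6 are set side by side because these neighbouring genes have similar sequences, while in ProT Klra5 lay above the olfactory level (6.87 ± 0.07) and Klra6 under it (4.36 ± 0.01). Capitals mark the same 8 motifs, and the sequences are again from RefSeq (GRCm38.p6).
Klra5, chr6:129913175-129913474, minus strand: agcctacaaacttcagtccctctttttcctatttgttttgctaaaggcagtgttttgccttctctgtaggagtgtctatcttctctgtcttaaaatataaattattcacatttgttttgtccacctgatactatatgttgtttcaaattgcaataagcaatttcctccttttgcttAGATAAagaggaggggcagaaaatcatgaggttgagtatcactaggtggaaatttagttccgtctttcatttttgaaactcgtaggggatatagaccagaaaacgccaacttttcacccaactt
Klra6, chr6:130026905-130027204, minus strand: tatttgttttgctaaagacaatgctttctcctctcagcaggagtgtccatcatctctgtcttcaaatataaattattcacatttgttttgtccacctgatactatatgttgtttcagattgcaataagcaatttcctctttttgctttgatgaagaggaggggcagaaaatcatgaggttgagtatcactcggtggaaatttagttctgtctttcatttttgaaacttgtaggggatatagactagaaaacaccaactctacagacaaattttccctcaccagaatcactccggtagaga

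The aligned pair was 74.8% identical over 329 columns. Klra5 held 1 GATA match, the letters AGATAA at bases 177 to 182 of the printed sequence, and Klra6 held none of the 8 motifs. A GATA match was present in 11.2% of all promoters of this length. Gata3, the GATA factor of T cells and innate lymphocytes, had a mean of 6.08 in HSC, 11.96 in ProT and 11.23 in DP. It was called lower in DP than in ProT (-0.73 ± 0.08, adjusted p = 0.00125, limma). Any link between Gata3 and Klra5 was not tested.

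Klrd1, the gene for CD94, rose into ProT, while the Klrc genes, for NKG2 chains that pair with CD94, were not shown to be above background. Klrd1 read 5.10 and 5.04 in HSC, 8.23 and 8.43 in ProT, and 7.35 and 7.19 in DP. No arrays of the 3 populations overlapped, and DP kept part of the rise. Klrd1 rose at least 4.93-fold into ProT (3.26 ± 0.10, adjusted p = 2.31e-05, limma), fell 2.08-fold into DP and remained at least 2.37-fold above HSC (2.20 ± 0.10, adjusted p = 4.25e-05). Klrc1, which encodes the inhibitory partner NKG2A, read 5.31 to 5.45 in HSC, 5.50 to 5.62 in ProT and 5.57 to 5.76 in DP. Klrc2 and Klrc3, for activating NKG2 chains, also stayed under the olfactory level, and none of the 3 Klrc genes was called in any comparison. Klrk1, which encodes the stress ligand receptor NKG2D, read 4.68 and 4.62 in HSC, 4.74 and 4.72 in ProT and 5.08 and 4.99 in DP. Its call in DP against ProT (0.30 ± 0.07, adjusted p = 0.0255, limma) concerns values under the olfactory level. It was lost without ProT replicate 1 (adjusted p = 0.0845), ProT replicate 2 (0.0952), DP replicate 1 (0.136) or DP replicate 2 (0.0785).

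The Klri genes encode receptors that pair with the product of Klre1. Klri1 read 4.81 and 4.86 in HSC, 6.17 and 6.62 in ProT, and 5.31 and 5.17 in DP, so that ProT alone passed the olfactory level. It rose at least 1.29-fold (1.56 ± 0.15, adjusted p = 0.00172, limma) and fell at least 1.27-fold. Klri2 was called in the same directions (0.99 ± 0.10 and -0.84 ± 0.10) at signals of at most 5.17. Klre1 itself was not called, with arrays from 4.16 to 4.52. Klrg1, a cadherin receptor of mature NK and effector T cells, was called highest in ProT (0.58 ± 0.08 and -0.44 ± 0.08), again with every array under the olfactory level, and its fall was lost without DP replicate 1 (adjusted p = 0.0764, limma). Klrg2 read 6.46 and 6.77 in HSC and between 5.97 and 6.14 in ProT and DP. Its fall into ProT (-0.54 ± 0.13, adjusted p = 0.0398, limma) was lost without HSC replicate 2 (0.0964), ProT replicate 1 (0.093), ProT replicate 2 (0.14) or either DP array (0.104).

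**Figure D2:**
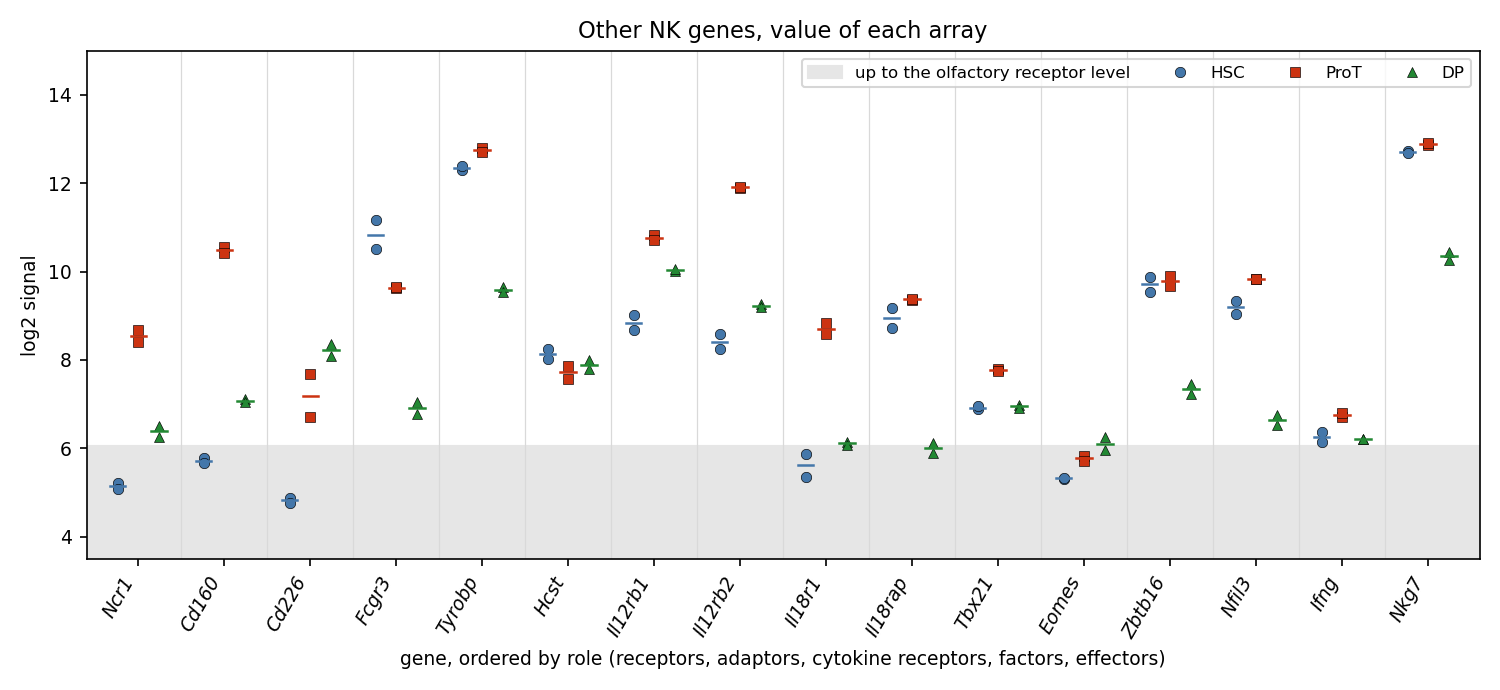
Log2 signal (vertical axis) of the 16 other NK genes, ordered by role, with 1 point per array, a short bar at the mean of each population and a grey band up to the olfactory level. Ncr1, Cd160, Il12rb2 and Il18r1 are highest in ProT, and Cd226 is highest in DP. Nkg7, Zbtb16 and Il18rap, not called between HSC and ProT, are lower in DP. Tyrobp and Nfil3, called slightly higher in ProT than in HSC, are lowest in DP.

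Among activating receptors outside the lectin family, Ncr1 and Cd160 peaked in ProT. Ncr1 encodes NKp46, the receptor most closely tied to NK cells and some innate lymphoid cells. Its arrays read 5.21 and 5.07 in HSC, 8.41 and 8.68 in ProT, and 6.51 and 6.26 in DP. The rise was at least 5.75-fold (3.41 ± 0.13, adjusted p = 4.72e-05, limma), and a 4.47-fold fall left DP a little above the olfactory level and above HSC (1.24 ± 0.13). Cd160, a receptor for the TNF receptor family member HVEM, read 5.79 and 5.66 in HSC, 10.55 and 10.42 in ProT, and 7.11 and 7.05 in DP. It rose at least 22-fold (4.76 ± 0.09, adjusted p = 5.63e-06, limma) and fell 10.6-fold. For both genes all 3 populations were separate.

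Cd226 and Fcgr3 went other ways. Cd226, the gene of the adhesion receptor DNAM-1, read 4.88 and 4.76 in HSC, 6.71 and 7.68 in ProT, and 8.36 and 8.10 in DP. The ProT arrays differed from each other by more than those of any other member. Cd226 rose at least 2.25-fold into ProT (2.38 ± 0.30, adjusted p = 0.00459, limma) and was at least 4.61-fold higher in DP than in HSC. The further rise from ProT to DP (1.03 ± 0.30, adjusted p = 0.0472, limma) rested on single arrays. It was 0.55 without ProT replicate 1 (adjusted p = 0.0514) and was not called without DP replicate 1 (0.227), DP replicate 2 (0.151) or either HSC array (0.0579), nor with a replicate block (0.0612). Fcgr3, an Fc receptor for IgG shared by NK cells, macrophages and granulocytes, read 10.52 and 11.16 in HSC, 9.62 and 9.66 in ProT, and 7.05 and 6.78 in DP, a fall at each step. The first step (-1.20 ± 0.22, adjusted p = 0.0166, limma) was lost without ProT replicate 1 (0.0773), ProT replicate 2 (0.0568) or either DP array (0.0566), and over the whole path the gene fell 15.2-fold.

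Promoters of Ncr1 and Cd160, the activating receptor genes outside the lectin family that were highest in ProT, follow, with the same source and marking as above.
Ncr1, chr7:4337465-4337764, plus strand: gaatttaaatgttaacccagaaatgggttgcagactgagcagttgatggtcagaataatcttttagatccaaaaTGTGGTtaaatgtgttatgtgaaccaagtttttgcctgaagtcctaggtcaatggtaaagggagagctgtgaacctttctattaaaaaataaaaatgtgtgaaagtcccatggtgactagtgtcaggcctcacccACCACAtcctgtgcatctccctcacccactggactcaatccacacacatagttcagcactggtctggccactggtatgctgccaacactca
Cd160, chr3:96829302-96829601, minus strand: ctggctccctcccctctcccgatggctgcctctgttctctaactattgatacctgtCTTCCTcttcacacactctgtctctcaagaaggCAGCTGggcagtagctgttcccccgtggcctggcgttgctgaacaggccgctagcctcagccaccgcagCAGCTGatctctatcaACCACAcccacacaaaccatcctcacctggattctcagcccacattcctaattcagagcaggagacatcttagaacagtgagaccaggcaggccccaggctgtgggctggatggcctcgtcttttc

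Ncr1 held 2 RUNX matches, and Cd160 held 1 RUNX match, 1 ETS match and 2 E-box matches. Promoter sequences were matched by symbol for 31 of the 39 members. The others are Klrb1-ps1, Klrd1, Klrg1, Klri2, Cd226, Tyrobp, Il12rb1 and Zbtb16. Among the 11 members highest in ProT with a promoter, 4 held a match to the E-box letters CAGCTG (Cd160, Tbx21, Nfil3 and Ifng), against 0 of 20 other members and 16.3% of all promoters. RUNX matches stood in 3 of 11 and in 8 of 20, and ETS matches in 4 of 11 and in 8 of 20. GATA matches stood in 1 and 1 of these promoters. For RBPJ, through which Notch acts on its target genes, the letters TGGGAA were found in 2 and 4, beside 25.6% of all promoters of this length. For the STAT factors, which carry cytokine signals to the nucleus, the letters TTCNNNGAA were found in 2 and 3, beside 8.30% of all promoters. For the T-box family, to which T-bet and Eomes belong, the letters TCACACC were found in 0 and 1, beside 3.98% of all promoters. For NFIL3, a leucine zipper factor, the letters TTANGTAA were found in 0 and 0, beside 2.32% of all promoters. These are counts of letters in 1 window and no test was made on them.

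The adaptor genes were present in all 3 populations. Tyrobp, for DAP12, through which many activating lectin receptors signal, read 12.31 and 12.40 in HSC, 12.81 and 12.70 in ProT, and 9.65 and 9.53 in DP. HSC and ProT were close and DP far lower, a fall of 8.97-fold from ProT (-3.16 ± 0.09, adjusted p = 1.15e-05, limma). The small rise into ProT (0.40 ± 0.09, adjusted p = 0.0319, limma) was lost after median centring (0.0786), with a replicate block (0.0536) and without any single array (0.0519 to 0.149). Without this call Tyrobp would not count among the 16 members highest in ProT. Hcst, for DAP10, the partner of NKG2D, read 8.03 and 8.26 in HSC, 7.87 and 7.57 in ProT, and 7.99 and 7.79 in DP. It was not called in any comparison, with differences of -0.42 ± 0.14, 0.17 ± 0.14 and -0.26 ± 0.14.

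Receptors for IL12 and IL18, cytokines that drive interferon gamma in NK cells and T cells, were strong in ProT. Il12rb1, the chain shared with the IL23 receptor, read 9.01 and 8.68 in HSC, 10.83 and 10.71 in ProT, and 10.02 and 10.07 in DP. Il12rb2, the chain that confers signalling, read 8.59 and 8.24, 11.90 and 11.91, and 9.26 and 9.19 in the same order. Neither gene had overlapping populations, and both were highest in ProT. Il12rb2 rose 11.2-fold (3.49 ± 0.12, adjusted p = 3.27e-05, limma) and fell 6.43-fold, and Il12rb1 rose 3.80-fold (1.93 ± 0.12) and fell 1.65-fold (-0.73 ± 0.12, adjusted p = 0.00652, limma). That fall was lost without DP replicate 1 (adjusted p = 0.0601) or DP replicate 2 (0.0546), in limma.

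The chains of the IL18 receptor had different courses. Il18r1, the ligand-binding chain, read 5.87 and 5.36 in HSC, 8.58 and 8.83 in ProT, and 6.15 and 6.08 in DP, so HSC lay under the olfactory level and DP just over it. It rose at least 6.42-fold (3.09 ± 0.18, adjusted p = 0.000235, limma) and fell 6.03-fold. Il18rap, the accessory chain, was already high in HSC at 9.18 and 8.72, read 9.36 and 9.38 in ProT, and fell at least 9.96-fold to 6.13 and 5.89 in DP. Its step from HSC to ProT was not called (0.42 ± 0.17, adjusted p = 0.181) except without HSC replicate 1 (0.65, adjusted p = 0.0208, limma). ProT was thus the population where both chains were well above the olfactory level.

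**Figure D3:**
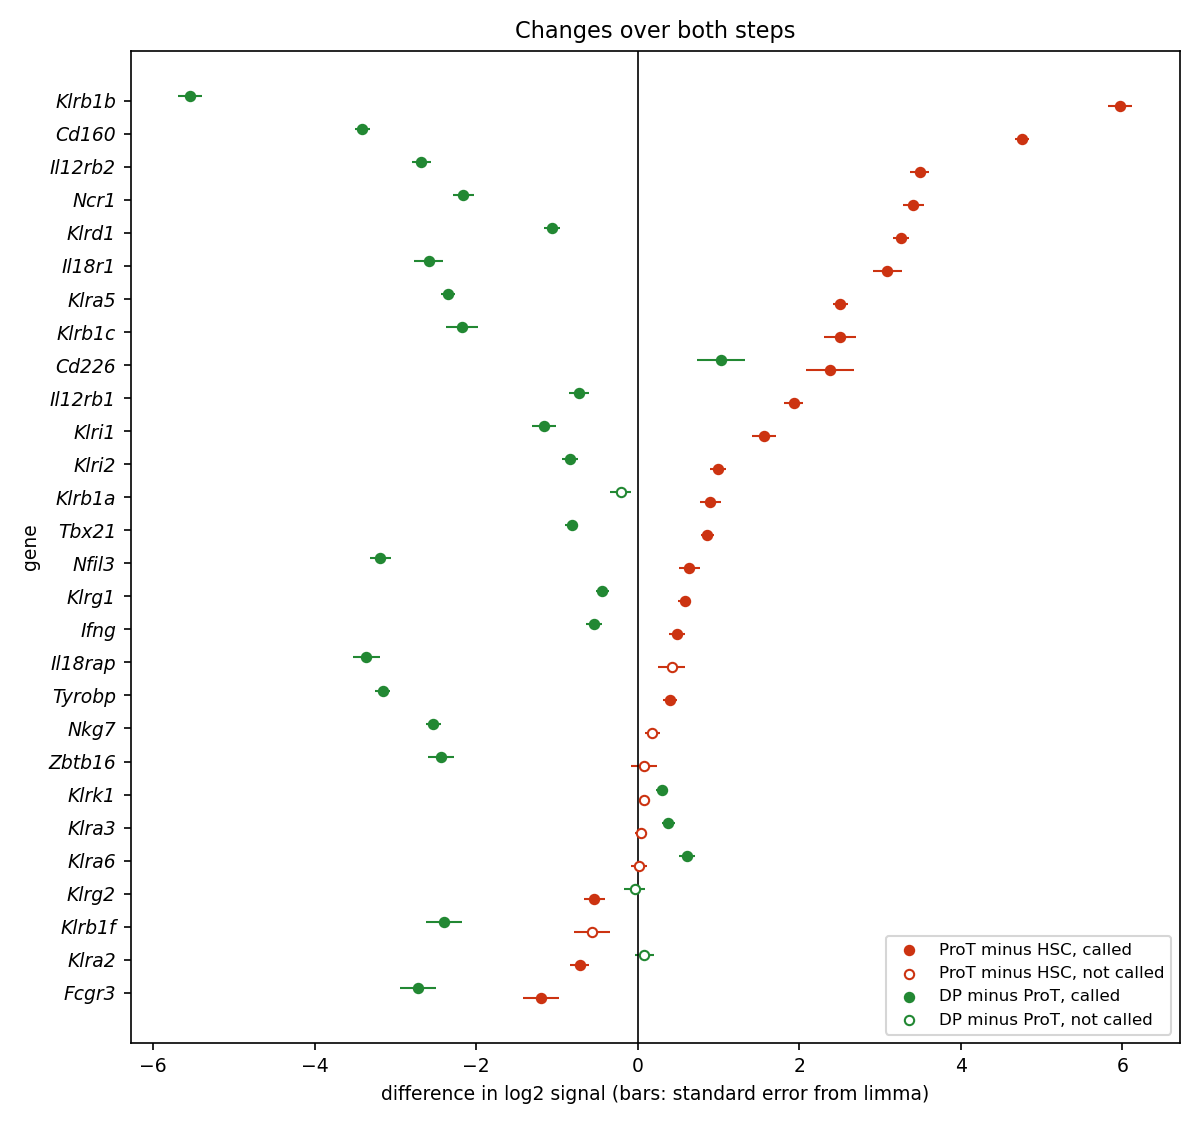
Log2 difference (horizontal axis) from HSC to ProT (red) and from ProT to DP (green) for the members called in at least 1 of these steps, sorted by the first; bars are standard errors and open points were not called. Klrb1b has the largest change of the members shown in both steps, 5.97 and -5.54, and Cd226 is called higher in both.

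The transcription factors of NK cells were not raised together. Tbx21, which encodes T-bet, the factor of mature NK and type 1 helper cells, read 6.88 and 6.96 in HSC, 7.80 and 7.75 in ProT, and 6.99 and 6.92 in DP. The ProT arrays were above the other 4, which overlapped. The rise was 1.82-fold (0.86 ± 0.08, adjusted p = 0.00117, limma) and the fall 1.77-fold. Eomes, the related factor that marks conventional NK cells, read 5.31 and 5.34 in HSC, 5.83 and 5.72 in ProT, and 6.25 and 5.96 in DP. It was under the olfactory level in HSC and ProT and just over it in DP, and it was not called in either step (0.45 ± 0.11, adjusted p = 0.0504, and 0.33 ± 0.11, adjusted p = 0.0742, limma). Over both steps it was called higher in DP than in HSC (0.78 ± 0.11, adjusted p = 0.00295, limma). The first step was called with the trended robust prior (adjusted p = 0.022) and without either DP array (0.0478), and the second with median centring (0.0303), the trended robust prior (0.0403) and without DP replicate 2 (0.0448).

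Nfil3, needed early in NK and innate lymphoid development, read 9.05 and 9.34 in HSC, 9.83 and 9.83 in ProT, and 6.75 and 6.53 in DP. Its main change was a 9.15-fold fall into DP (-3.19 ± 0.13, adjusted p = 3.45e-05, limma). The rise into ProT (0.64 ± 0.13, adjusted p = 0.0236, limma) was lost without ProT replicate 1 (0.0973), ProT replicate 2 (0.0769) or either DP array (0.0546). Zbtb16, which encodes PLZF, the factor of NKT cells and innate lymphoid precursors, read 9.89 and 9.53 in HSC, 9.90 and 9.67 in ProT, and 7.23 and 7.46 in DP. HSC and ProT overlapped, with a change of 0.08 ± 0.16 that became -0.01 after median centring, and DP was 5.44-fold below ProT (-2.44 ± 0.16, adjusted p = 0.000175, limma). Both factors were above the olfactory level on all HSC arrays.

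Among effector genes, Ifng was close to the olfactory level and Nkg7 was far above it on all arrays. Ifng, for interferon gamma, read 6.15 and 6.37 in HSC, 6.70 and 6.81 in ProT, and 6.22 and 6.22 in DP. Its rise of 1.41-fold (0.49 ± 0.10, adjusted p = 0.024, limma) was lost after median centring (0.0524), without ProT replicate 1 (0.0644), ProT replicate 2 (0.0918) or either DP array (0.0802). Its fall (-0.54 ± 0.10, adjusted p = 0.00863, limma) was lost without DP replicate 1 (0.0653) or DP replicate 2 (0.0675). Nkg7, a granule membrane protein of cytotoxic cells, read 12.74 and 12.68 in HSC, 12.87 and 12.91 in ProT, and 10.45 and 10.27 in DP. The first step was not called (0.18 ± 0.09, adjusted p = 0.284), and the second was a 5.77-fold fall (-2.53 ± 0.09, adjusted p = 2.08e-05, limma).

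Several of these genes are also used by other cells, and markers of those cells moved over the same steps. All 8 myeloid markers, among them Csf3r, Mpo and Elane, were above the olfactory level in HSC and were called lower in ProT. The summed linear signal of that list was 30765 to 35093 in HSC, 1982 to 3404 in ProT and 2312 to 2487 in DP, with Cd14 and S100a8 under the olfactory level in ProT. From HSC to ProT, Fcgr3 was called lower and Tyrobp higher, and Nkg7, Zbtb16 and Il18rap were not called. Each of these members was called lower in DP than in ProT. Mast cell markers summed to 4075 to 4767 in HSC, 22405 to 22437 in ProT and 834 to 925 in DP, with all 6 called higher in ProT and all 6 lower in DP, the same directions as Klrb1b and Cd160. Kit is in both the mast cell and the progenitor list. In the macrophage list of 5 genes, Adgre1 was called higher in ProT (1.43) and lower in DP (-3.98), C1qa, C1qb and C1qc were called higher and Cd68 lower in DP than in ProT, and the sums ran from 2170 to 2802, from 3735 to 3784 and from 1720 to 1846 in HSC, ProT and DP. The 3 B cell markers measured were called higher in DP, where they summed to 284 to 297. The part of any of these cells in the values of the members was not tested.

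Markers of lymphoid relatives gave a mixed picture of the ProT samples. The NK-defining list summed to 355 to 366 in HSC, 15299 to 16829 in ProT and 1210 to 1266 in DP. Linear sums are weighted to the strongest signals. In ProT, Gzmb and Il2rb had means of 13.54 and 11.65, and the other genes of this list at most 8.55. In ProT 5 of its 8 genes were above the olfactory level (Ncr1, Klrb1c, Prf1, Gzmb and Il2rb) and 3 were under it (Eomes, Klra8 and Klrk1). Ncr1, Klrb1c, Eomes, Klra8 and Klrk1 are themselves members. All 5 measured markers of type 2 innate lymphoid cells were called higher in ProT, Il13, Il5, Rora, Il17rb and Gata3, of which Il5 and Il17rb were under the olfactory level in HSC, and their sum went from 377 to 400 in HSC to 6087 to 6549 in ProT and 3608 to 3722 in DP. The 3 measured markers of IL17-producing cells, Il23r, Il17a and Ccr6, were not called in either step, with changes from -0.19 to 0.40, and their sums stayed between 139 and 179. The NKT and gamma delta T cell list summed to 1366 to 1536, 7622 to 8183 and 3729 to 3874, and 2 of its 5 genes were called higher in ProT. In ProT, Trgv1 (mean 12.64) weighed most in this sum, and Gata3 (11.96) in that of type 2 innate lymphoid cells.

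**Figure D4:**
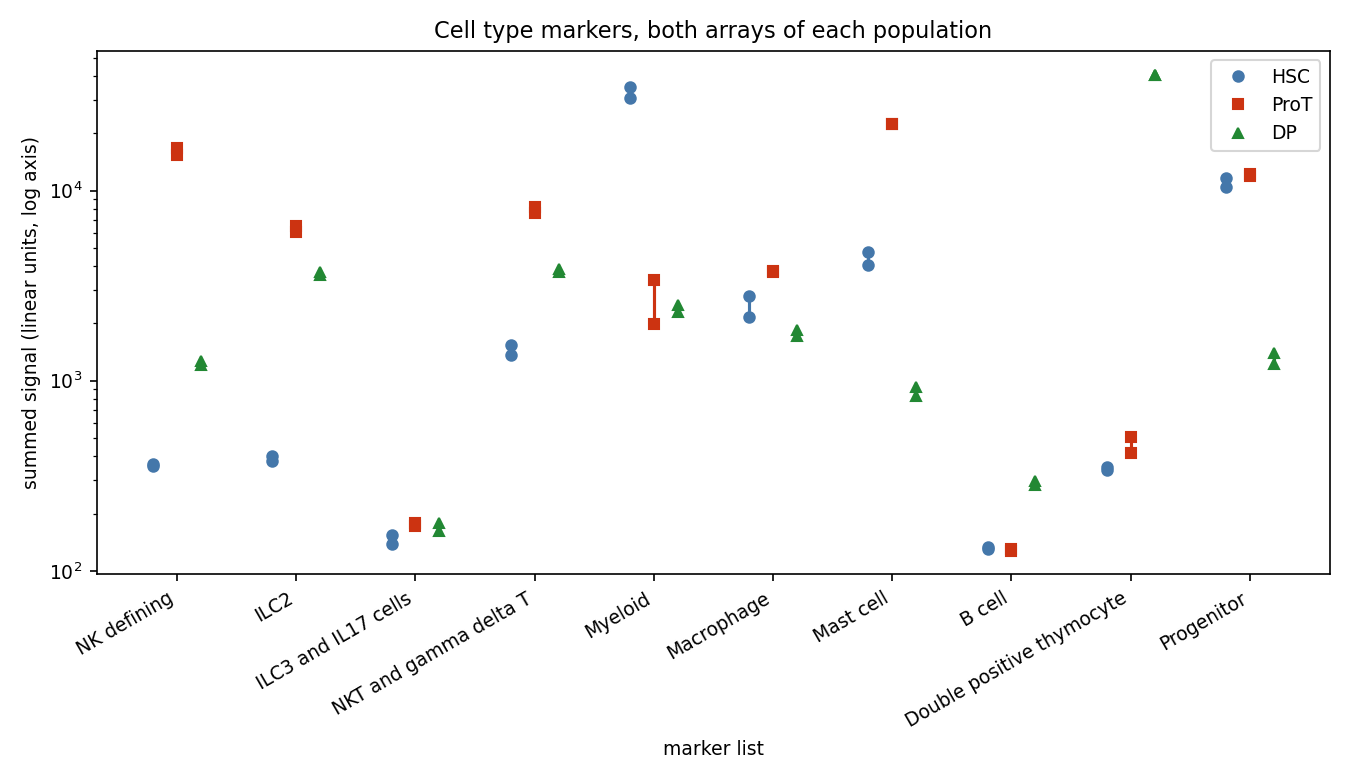
Summed linear signal of each cell type marker list (vertical log axis) for both arrays of HSC, ProT and DP, joined by a line. NK-defining, type 2 innate lymphoid, NKT and gamma delta T, macrophage, mast cell and progenitor sums are highest in ProT. The myeloid sum is highest in HSC, and the double positive thymocyte and B cell sums in DP. Sums for IL17-producing cells overlap between ProT and DP.

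Lists of other genes of the NK pathway give the surroundings of the members. They were written from general knowledge, but with earlier results of these data known, so their counts are descriptive. Beside them stand the shares of all genes called, 7.85% higher and 6.90% lower in ProT against HSC and 14.5% and 18.1% in DP against ProT. Among NK and innate lymphoid transcription factors, 8 of 15 measured were called higher in ProT and 1 lower, with a median change of 0.79. Gata3 (5.87 ± 0.08), Tox (3.74 ± 0.08), a factor of early T and innate lymphoid cells, and Rora (3.14 ± 0.20), a factor of type 2 innate lymphoid cells, rose, and Zeb2, a factor of mature NK and myeloid cells, fell by 2.35 on the log2 scale. From ProT to DP 5 rose and 5 fell, with a median of -0.05. Ets1 (3.63 ± 0.10) and Bcl11b (3.13 ± 0.08), factors of T cells, were among the rises, and Rora (-2.58 ± 0.20) and Runx3 (-2.30 ± 0.13), a factor of cytotoxic lymphocytes, among the falls.

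In the list of IL2, IL15, IL12 and IL18 signalling, 4 of 19 rose and 3 fell in ProT, with median changes of 0.25 in this step and -0.74 in the next. Il2ra, the high-affinity IL2 receptor chain that immature thymocytes also carry, rose by 6.73 ± 0.38, Il2rb, the chain shared by IL2 and IL15, at least 49.3-fold from under the olfactory level and Gadd45g, which relays IL12 and IL18 signals, by 3.43 ± 0.18. Il12a, the cytokine subunit itself, fell by 2.61 on the log2 scale. From ProT to DP 11 fell and 4 rose, and the falls of Gadd45g (-3.69 ± 0.18), Il2rb (-2.20 ± 0.21), Il2ra (-2.08 ± 0.38) and the cytokine gene Il18 (at least 2.08-fold, to under the olfactory level) were called.

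Of 20 measured adaptors and signalling genes of NK receptors, 8 rose and 1 fell in ProT, with median changes of 0.23 in this step and 0.19 in the next. Those that rose most were the T cell adaptor Lat (3.72 ± 0.29), Sh2d1b1, the adaptor EAT-2 of SLAM receptors in NK and myeloid cells (2.80 ± 0.46), the CD3 zeta chain Cd247 (2.52 ± 0.10) and Sh2d2a (2.37 ± 0.07). From ProT to DP 8 rose and 9 fell. Sh2d1a, the SLAM adaptor of T and NK cells, rose at least 33.7-fold from under the olfactory level, while Sh2d1b1 (at least 17.5-fold, to under that level), Plcg2 (-3.62 ± 0.11), the phospholipase of B, NK and myeloid cells, and Lat2 (-3.46 ± 0.12) fell. Fcer1g, picked after its values were seen because it and Tyrobp are the ITAM adaptors of NK and myeloid receptors, was level from HSC to ProT at a mean of 12.62 in each and fell by 2.80 on the log2 scale into DP.

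The list of receptor ligands had 11 of 19 genes measured, and 1 rose (9.09%) and 3 fell (27.3%) in ProT and 4 rose (36.4%) and 2 fell (18.2%) in DP against ProT. The share that rose in ProT and the share that fell in DP were close to those of all genes, and the medians were -0.15 and 0.27. Cdh1, the E-cadherin that KLRG1 binds, rose by 5.03 ± 0.07 into ProT and fell by 4.21 on the log2 scale into DP. Clec2d, the ligand of the Klrb1b product, was present throughout, at means of 9.88, 10.27 and 11.33, and rose from ProT to DP (1.07 ± 0.13), where Klrb1b fell. Raet1d, a stress ligand of NKG2D, read 8.59 and 10.51 in HSC and was under the olfactory level in ProT, a fall of at least 11.5-fold. Pvr, a ligand of Cd226, fell into ProT (-0.79 ± 0.11) and rose into DP (2.04 ± 0.11). Tnfrsf14, the HVEM that CD160 binds, fell into ProT (-0.73 ± 0.10).

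Other NK and lymphocyte surface receptors had 11 of 24 higher and 3 lower in ProT, with median changes of 0.26 in this step and -0.84 in the next. Cd7 (7.00 ± 0.15), the chemokine receptor Cxcr6 (at least 25.8-fold, from under the olfactory level) and Cd96 (3.03 ± 0.39), which shares ligands with Cd226, rose, and the collagen receptor chain Itga1 (at least 4.05-fold, to under the olfactory level) fell. From ProT to DP 12 fell and 5 rose, with Cd244a, an NK receptor of the SLAM family, at -3.69 ± 0.16 and Cxcr6 at -3.31 ± 0.13 among the falls, and Cd2 at 5.65 ± 0.08 and Slamf6 at 4.47 ± 0.11 among the rises. Of cytotoxic granule and secreted products, 9 of 24 rose and 1 fell in ProT, and 1 rose and 13 fell in DP, with medians of 0.16 and -0.69. The granzymes Gzmb (at least 183-fold), Gzma (at least 133-fold) and Gzmc (at least 23.8-fold) rose in ProT from under the olfactory level. The chemokine Xcl1 rose by 4.04 ± 0.32. The granzymes Gzmk and Gzmm were not called, at 0.04 ± 0.09 and 0.08 ± 0.10. Gzmd, Gzme, Gzmf and Gzmg were also not called and were under the olfactory level in all 3 populations. In DP, Gzmb (-7.48 ± 0.08), Gzmc (at least 23.3-fold, to under the olfactory level), the chemokine Ccl3 (-4.33 ± 0.27) and Gzma (-3.39 ± 0.09) fell.

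**Figure D5:**
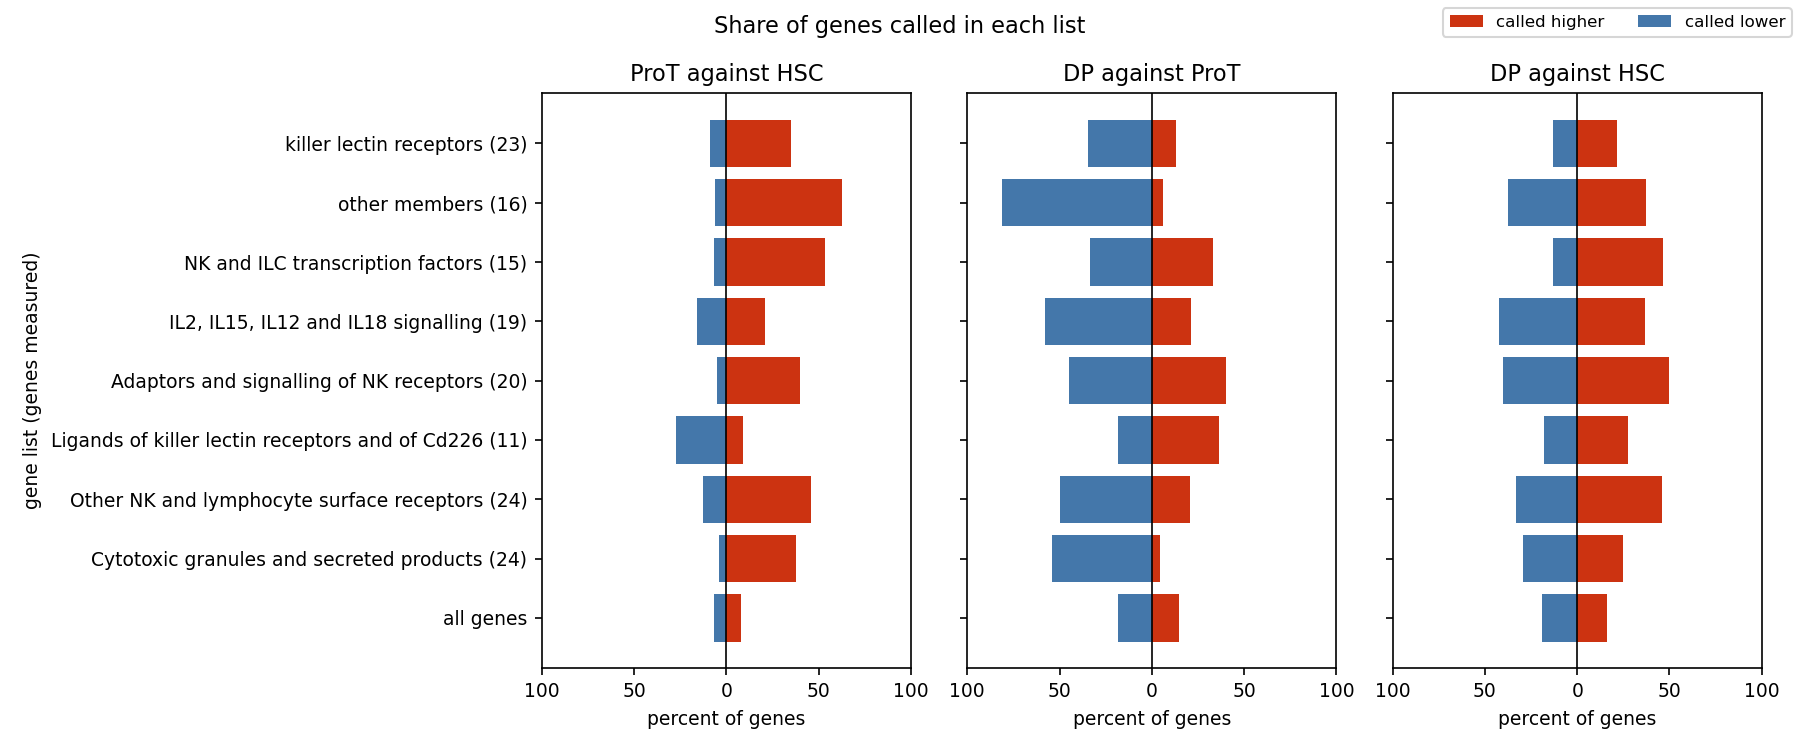
Percent of the measured genes of each list called higher (red, to the right) or lower (blue, to the left) in the 3 comparisons, with all 19938 genes in the bottom row. The 16 members outside the lectin family have 62.5% called higher in ProT and 81.2% called lower in DP against ProT.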

How the data were processed

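Total RNA of 6 mouse samples was hybridised to Affymetrix gene arrays. The authors deposited 1 table of log2 signals for 35556 probe sets, made with RMA and Partek per the submitters' processing notes, with versions not given in the sources used here. Genome build is not given in the sources used here. Of the probe sets, 21789 were linked to 1 gene by the platform annotation, covering 19938 genes; 21698 matched RefSeq by gene identifier, with 0 symbols changed. The probe set with the highest mean stood for a gene. Probe sets with several genes (1621) or none (12146) were left out.

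One mean per population was fitted to all 6 arrays in limma 3.58.1 (R 4.3.3) with eBayes (residual degrees of freedom 3, prior 2.83). Replicate numbers were not used as a block: replicate differences correlated between populations at 0.0584, -0.0222 and -0.0428. The fit was tested on simulated data. Alternatives were other scalings, probe set choices, a dim-gene filter, a replicate block, a trended prior, fits of 2 populations, and leaving out each array. Members named followed a rule: members called in at least 1 comparison, and the best-known NK markers whatever they showed; Klra4 among these has no probe set of its own. From each other list, up to 4 called genes by size of change and up to 2 that were not called could be named per comparison. Where a gene is named outside this rule, it was named after its values were seen. The named members, lists and tests were chosen with earlier results of these data known. The number of arrays limits the precision.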

Additional observations from a re-analysis of the deposited data

How the results depend on the processing

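Of the 66 called changes of members, quantile normalization, both probe set choices and the trended robust prior kept all 66. Median centring ended 2, the replicate block 3, fits of the compared populations alone 7, and leaving out 1 array between 2 and 16, all without a change of sign. The filter on dim genes kept 43 of the 66, all still called. The Zbtb16 change in ProT against HSC, not called, was -0.01 with median centring and ran from -0.10 to 0.26 when single arrays were left out; the cause was not tested. With the replicate block, whose numbers do not pair the arrays, 17 members were called higher and 2 lower in ProT against HSC, 3 and 21 in DP against ProT, 12 and 9 in DP against HSC, and 15 were highest in ProT. With median centring, 4522 of all genes were called higher in DP against ProT. The dim-gene filter, which leaves fewer genes to test, left 1 member lower in ProT against HSC, 1 higher in DP against ProT and 6 higher in DP against HSC. For the block and the filter, the shares of all genes called are not given here, so these member counts are not set against them. Fitting only HSC and ProT, with fewer arrays, gave 1013 higher and 779 lower genes and 0 members lower. Leaving out 1 array at a time gave, in ProT against HSC, 1013 to 1988 higher and 779 to 1994 lower genes and 15 to 19 higher and 0 to 5 lower members. In DP against ProT it gave 1467 to 3282 and 2047 to 4126 genes and 1 to 3 and 18 to 22 members. In DP against HSC it gave 1940 to 3188 and 2361 to 3862 genes and 9 to 13 and 7 to 10 members. The members highest in ProT were then 11 to 17 and those lowest there 0 to 0. The members above the olfactory level were 14 to 14 in HSC, 21 to 22 in ProT and 16 to 20 in DP. Beside the calls named above, Klrb1a, Klrg2 and Klra2 in DP against HSC lost theirs without either DP array, Klra3 without DP replicate 2 and Klrk1 without DP replicate 1. Signals near the olfactory level limit what can be said of most lectin receptors, and closely related genes may share probe signal.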

Other observations

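The array also holds 4 probe sets that are each linked to several Klra genes and stand for no single gene above. Together they cover 9 Klr genes with no probe set of their own, among them Klra1, Klra4, Klra7, Klra9 and Klra10. Their values on the 6 arrays ran from 4.26 to 4.96, all under the olfactory level. The probe set linked to Klra9, Klra5 and Klra3 read 4.58 and 4.69 in HSC, 4.36 and 4.56 in ProT, and 4.96 and 4.73 in DP, so it did not follow the Klra5 probe set, which read 6.91 and 6.82 in ProT. The probe set of 7 genes that also lists Klra5 read 4.34 and 4.40 in ProT.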
